A study of Mus musculus with 11 samples.

Results

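The genes described here carry excitatory, glutamate-driven transmission: receptors for glutamate, the transporters that load it into vesicles, and proteins that hold the receptors at the synapse. The rule that chose them uses gene symbols and no measured value, and 43 of the 20888 symbols in the deposited table matched. The 43 comprised 4 AMPA, 5 kainate, 7 NMDA and 2 delta receptor subunits, 8 metabotropic receptors, 3 vesicular transporters, 3 membrane-associated guanylate kinase (MAGUK) scaffolds, 3 SHANK and 3 HOMER scaffolds, 2 subunits of the kinase CaMKII, 2 neuroligins, and Grin1os, an RNA antisense to Grin1 that the symbol pattern also took. Of these, 41 passed the filter on low values, as did 14347 symbols in all.

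Messenger RNA of the lumbar spinal cord was sequenced in C57BL/6 mice aged 10 months, in work on Charcot-Marie-Tooth disease type 2A, an axonal neuropathy caused by mutations of the mitochondrial fusion protein MFN2. There were 5 libraries from MFN2-R94Q:MFN1 mice, which carry the mutant MFN2-R94Q together with MFN1, the other mitofusin. There were 3 libraries from MFN2-R94Q mice and 3 from nontransgenic mice (nTg), and each library was taken as 1 animal because the design counts mice. The sources used here do not give the promoters that drive the transgenes, their copy number, the number of founder lines or the sex of the animals. MFN2-R94Q is common to both transgenic groups, so the comparison of MFN2-R94Q:MFN1 with MFN2-R94Q concerns the presence of MFN1 on the mutant background.

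Glutamate is the main excitatory transmitter of the spinal cord, released by sensory afferents, descending fibres and local interneurons onto dorsal horn neurons and motor neurons. AMPA and kainate receptors are cation channels that carry fast transmission, NMDA receptors are calcium-permeable channels that need an obligatory GluN1 subunit, and metabotropic receptors act through G proteins. MAGUK, SHANK and HOMER proteins are stacked layers of the postsynaptic density that tie these receptors to each other, to CaMKII and to the cytoskeleton, and neuroligins link the density to the presynaptic terminal.

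Values are RPKM as deposited. This unit divides reads by the length of the gene and by the depth of the library, and so allows levels of different genes to be compared per length. Library depth, worked out from the steps between low values, was 36.5 to 72.0 M reads in MFN2-R94Q:MFN1 libraries, 30.7 to 52.5 M in MFN2-R94Q and 34.7 to 54.1 M in nTg. The neuronal gene Snap25 was at 900 to 986 RPKM and the motor neuron gene Chat at 9.93 to 11.9 RPKM in the 11 libraries, whereas the sensory ganglion genes Scn10a, Mrgprd and Trpv1 stayed at or below 0.0465 RPKM. Mfn2 overlapped between the groups, at 43.4 to 47.0 RPKM in MFN2-R94Q:MFN1, 44.9 to 47.7 RPKM in MFN2-R94Q and 44.8 to 47.2 RPKM in nTg. Mfn1 was at 24.2 to 25.6 RPKM in MFN2-R94Q:MFN1, 25.8 to 26.6 RPKM in MFN2-R94Q and 24.2 to 25.5 RPKM in nTg, so it was highest in the 3 MFN2-R94Q libraries and not raised in those labelled as carrying MFN1. Neither symbol was called in any comparison (smallest adjusted p = 0.13 for Mfn1 and 0.56 for Mfn2). The labels do not say whether transgene reads count under these symbols, and the levels are therefore no check of genotype. MFN2-R94Q replicate 2 lay apart from the rest, at 27.0 on a first principal component that held 39.6% of the variance, against 6.20 and 8.05 for the other MFN2-R94Q libraries and -8.23 to -2.48 for the remaining 8. It held the lowest of the 11 values for 13 of the 41 tested members and the highest for 8, so results that rest on it are given with and without it.

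RNA of the members in this tissue was dominated by a few genes. In nTg cord the most abundant members were Camk2b at 88.3 ± 0.564 RPKM, Grin1 at 87.3 ± 1.72 RPKM and Dlg4, the gene of the scaffold PSD95, at 70.8 ± 0.131 RPKM (SD, n = 3 each). The neighbours Camk2b and Grin1 did not differ beyond their spread. Slc17a6 followed at 49.4 ± 1.06 RPKM and Gria4 at 30.2 ± 0.942 RPKM. The next 7 members, from Camk2a at 26.7 RPKM down to Shank1 at 20.6 RPKM, held the other AMPA subunits, Dlg2 and the kainate subunit Grik5, and neighbours in that stretch often overlapped. The other 31 members averaged 12.0 RPKM or less, and the lowest were Slc17a7 at 0.502, Slc17a8 at 0.306 and Grm6, which was listed at 0 in 8 of 11 libraries and reached 0.00666 RPKM at most. Slc17a8 and Grm6 were low in every group and were not tested.

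**Figure D1:**
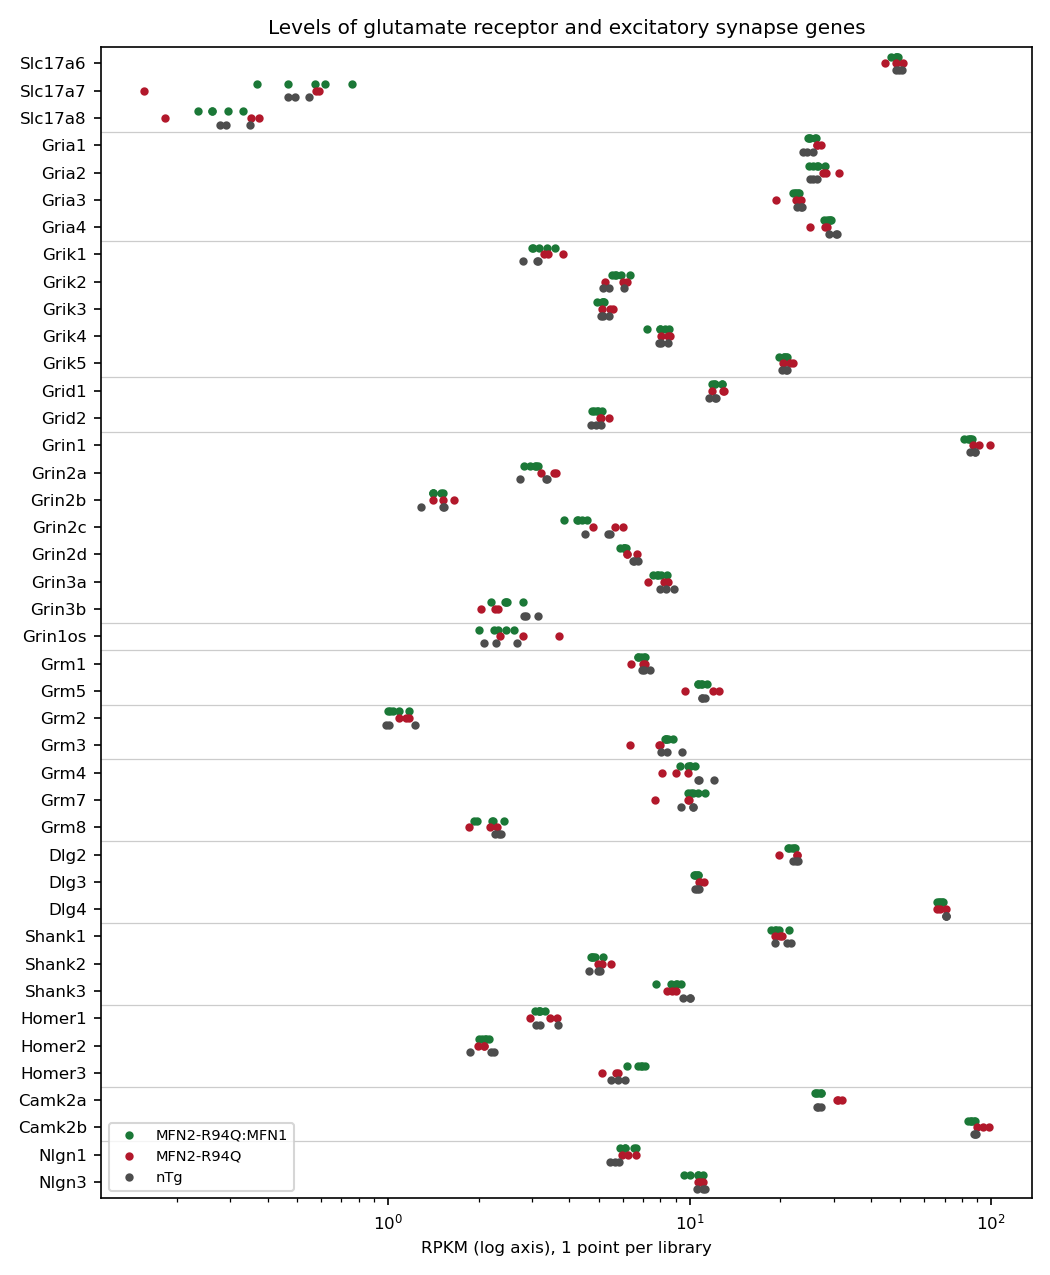
RPKM on a log axis for each library of the 3 genotypes, with members grouped by role and points as single animals. Points span from under 1 RPKM (Slc17a7, Slc17a8) to 98.8 RPKM (Grin1, MFN2-R94Q replicate 2), and the 3 genotypes lie close together for most members. Grm6, listed at 0 in most libraries, is not drawn.

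Of the 41 tested members, 8 passed an adjusted p of 0.05 in limma, with Benjamini-Hochberg adjustment over all 14347 genes, in at least 1 of the 3 comparisons, and 33 passed in none. In MFN2-R94Q against nTg, 4 of 41 members passed, or 9.76%, beside 17.9% of all tested genes. In MFN2-R94Q:MFN1 against MFN2-R94Q, 5 of 41 passed, or 12.2%, beside 12.9% of all genes. In MFN2-R94Q:MFN1 against nTg none of the 41 passed, beside 2.31% of all genes. An unadjusted p under 0.05 was met by 11, 11 and 8 members in the 3 comparisons in that order, or 26.8%, 26.8% and 19.5%, beside 34.4%, 29.4% and 15.5% of all genes. Over both directions together, the share of members called after adjustment was below that of all genes in each comparison. All differences were small, with log2 fold changes between -0.35 and 0.27. The comparisons share groups of animals, so each has its own values here and no overlap between them is read as a result. Fewer cells of a type and less RNA per cell cannot be told apart in these bulk samples.

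**Figure D2:**
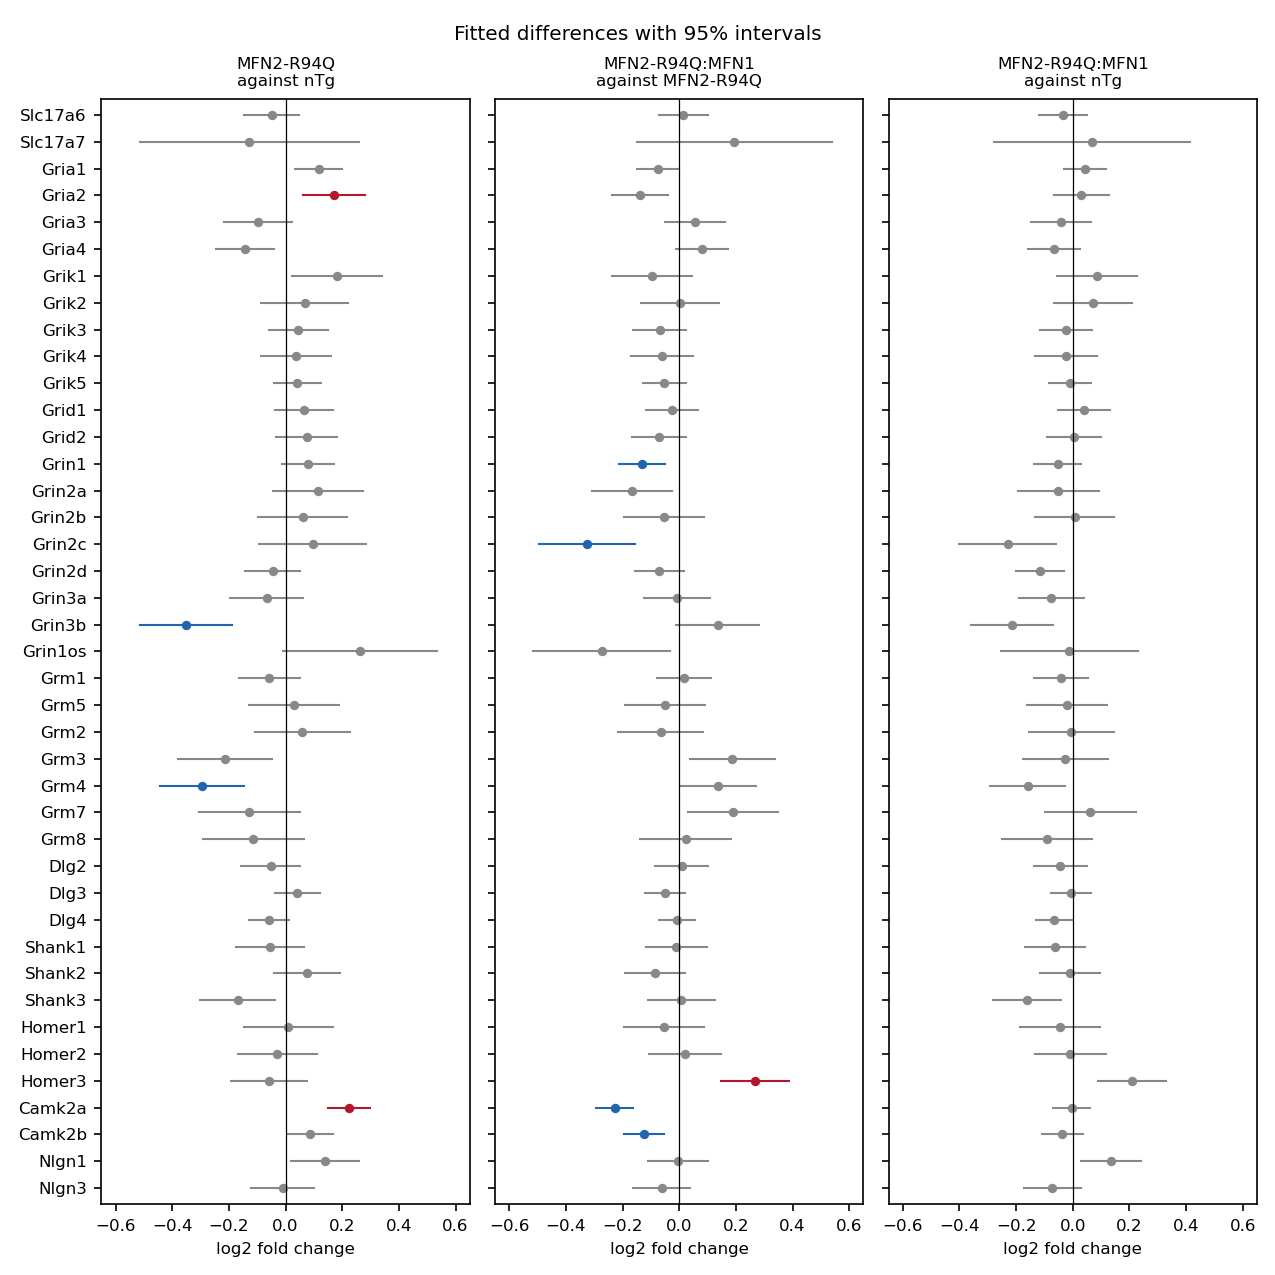
Log2 fold change of each tested member on the log2(RPKM + 0.5) scale in the 3 comparisons, with 95% limma intervals. Red points are members called higher, blue points members called lower and grey points members not called; the 9 calls belong to 8 genes, and none lies in the panel of MFN2-R94Q:MFN1 against nTg.

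MFN2-R94Q cords had more Camk2a and Gria2 transcript than nTg cords and less Grin3b and Grm4. The other 37 tested members were not called. The 2 higher members were 4.88% of those tested, beside 7.5% of all genes called higher, and the 2 lower members were 4.88%, beside 10.4% called lower. The median log2 fold change of the members was 0.03, beside -0.002 over all tested genes, and the median size of the change was 0.07, beside 0.10. Of 41 members 22 were above 0 and 19 below, and 49.3% of all genes were above 0. Of the 37 members not called, 35 had a 95% interval for the log2 fold change within ±0.5. The exceptions were Slc17a7, whose interval reached down to -0.51, and Grin1os, whose interval reached up to 0.53.

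Camk2a (chromosome 18, 60925618 to 60988152, GRCm38) encodes the alpha subunit of CaMKII, the calcium/calmodulin-dependent kinase of the postsynaptic density that phosphorylates AMPA receptors. It was at 30.9, 32.1 and 31.0 RPKM in MFN2-R94Q libraries, against 26.6, 26.4 and 27.3 RPKM in nTg libraries. All 3 MFN2-R94Q values lay above every nTg value, and all 5 MFN2-R94Q:MFN1 values, at 27.3, 26.0, 26.7, 27.2 and 26.2 RPKM, lay among or beside the nTg values. The difference between MFN2-R94Q and nTg was 1.17-fold (log2 0.22, SE 0.034, adjusted p = 0.0031). Between MFN2-R94Q:MFN1 and MFN2-R94Q it was 0.854-fold (log2 -0.23, SE 0.030, adjusted p = 0.0013). Between MFN2-R94Q:MFN1 and nTg the log2 fold change was -0.005, with a 95% interval of -0.07 to 0.06. Without MFN2-R94Q replicate 2 the first of these stood at log2 0.21 (adjusted p = 0.0041) and the second at -0.21 (adjusted p = 0.0027), and both calls held whichever library was left out.

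Camk2b, the beta subunit, which binds actin and was the most abundant member, was at 89.5, 98.6 and 93.7 RPKM in MFN2-R94Q libraries, against 88.4, 88.8 and 87.7 RPKM in nTg libraries. The MFN2-R94Q values were all higher, but the closest pair differed by less than 1 RPKM. The difference did not pass (log2 0.09, SE 0.037, adjusted p = 0.12), but did without MFN2-R94Q replicate 1 (log2 0.12, adjusted p = 0.033).

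**Figure D3:**
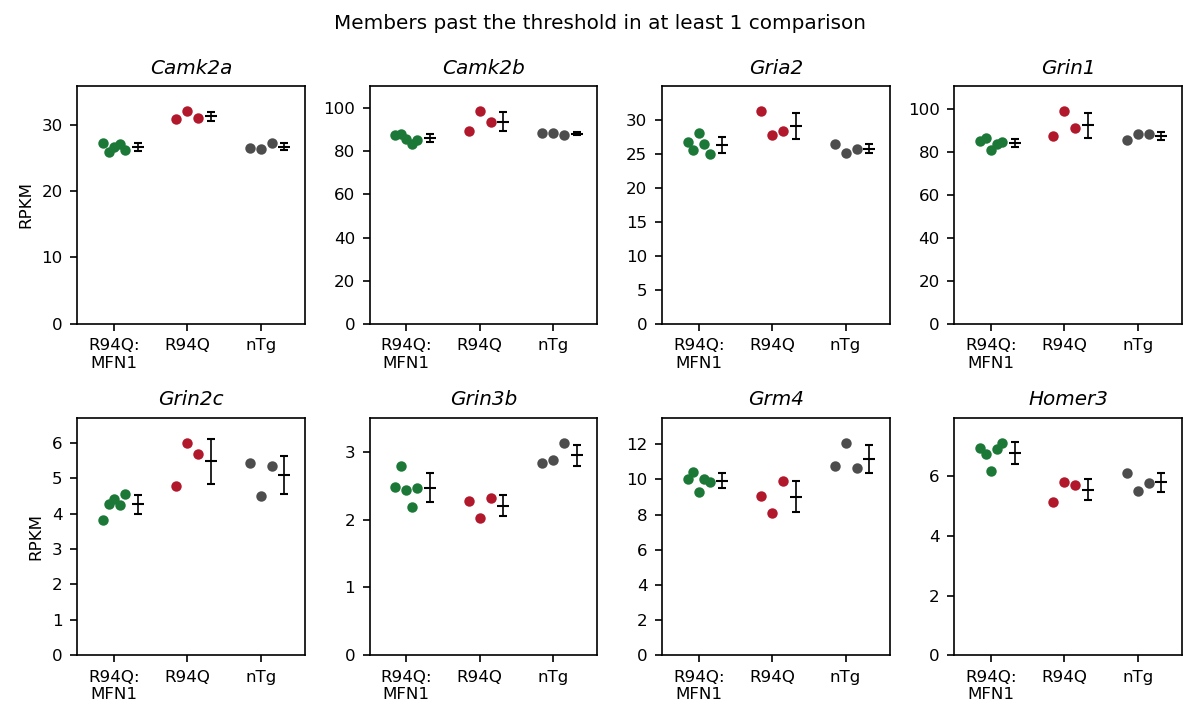
RPKM of the 8 members that passed in at least 1 comparison, 1 point per library, with the mean and SD beside each group and all axes starting at 0. Camk2a stands at 30.9 to 32.1 RPKM in MFN2-R94Q and at 26.0 to 27.3 RPKM in the other groups, and Homer3 is highest in MFN2-R94Q:MFN1.

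Among AMPA receptor subunits the mix differed between MFN2-R94Q and nTg while the total was alike. The RPKM of Gria1 to Gria4 summed to 105 ± 5.95 in MFN2-R94Q, against 104 ± 2.34 in nTg (SD, n = 3 each), and to 103 ± 1.92 in MFN2-R94Q:MFN1 (n = 5). Gria2 (chromosome 3, 80681450 to 80802835, GRCm38) encodes the subunit that, once edited, makes AMPA channels impermeable to calcium. It was at 31.2, 27.7 and 28.3 RPKM in MFN2-R94Q, against 26.5, 25.1 and 25.7 RPKM in nTg. The groups did not overlap, and the MFN2-R94Q libraries were spread more widely. The difference was 1.13-fold (log2 0.17, SE 0.051, adjusted p = 0.036). This call was lost when MFN2-R94Q replicate 1, the highest library, was left out (log2 0.12, adjusted p = 0.099), and without any 1 of the nTg libraries (adjusted p = 0.056 to 0.12). Without MFN2-R94Q replicate 2 it held (log2 0.20, adjusted p = 0.026). With the trend against transcript length and GC content removed, the difference was log2 0.08 and the call was lost (adjusted p = 0.067). In MFN2-R94Q:MFN1, Gria2 was at 26.7, 25.6, 28.0, 26.5 and 24.95 RPKM, which overlapped with both other groups, and its difference from MFN2-R94Q missed the threshold (log2 -0.14, SE 0.046, adjusted p = 0.060), which it passed with that trend removed (log2 -0.11, adjusted p = 0.018).

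Gria4, the AMPA subunit with the highest nTg level, was at 28.6, 25.1 and 28.1 RPKM in MFN2-R94Q, against 30.8, 30.6 and 29.1 RPKM in nTg. All MFN2-R94Q values were lower, with replicate 2 lowest, and the difference fell just short of the threshold (log2 -0.14, SE 0.047, adjusted p = 0.051). Without replicate 2 it was smaller (log2 -0.09, adjusted p = 0.15), without replicate 1 or 3 it passed (adjusted p = 0.025 and 0.047), and with the length and GC trend removed it passed as well (log2 -0.17, adjusted p = 0.0099). Gria1 was at 27.3, 26.4 and 26.5 RPKM in MFN2-R94Q, against 25.6, 23.8 and 24.4 RPKM in nTg, also without overlap and short of the threshold (log2 0.12, SE 0.038, adjusted p = 0.053). Gria3 overlapped between the groups (adjusted p = 0.23).

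As a share of the summed AMPA RPKM in the same library, Gria2 was 28.3, 28.1 and 26.9% in MFN2-R94Q, against 24.9, 24.6 and 25.1% in nTg. Gria4 was 25.9, 25.4 and 26.7% in MFN2-R94Q, against 28.9, 29.9 and 28.4% in nTg. Gria4 was therefore the most abundant AMPA subunit in all 3 nTg libraries, and Gria2 in all 3 MFN2-R94Q libraries, although in replicate 3 the shares of the pair were nearly equal. In MFN2-R94Q:MFN1 Gria4 led again in all 5 libraries, at 27.4, 28.6, 28.0, 27.9 and 27.8%, with Gria2 at 25.6, 24.9, 26.8, 25.5 and 24.97%. Shares are a description and were given no test, and a share within a library shows unequal change, not which subunit moved. Which subunit led also depends on the gene lengths used for RPKM, which are not given. The longest annotated transcript was 10371 bases for Gria2 and 5441 bases for Gria4.

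**Figure D4:**
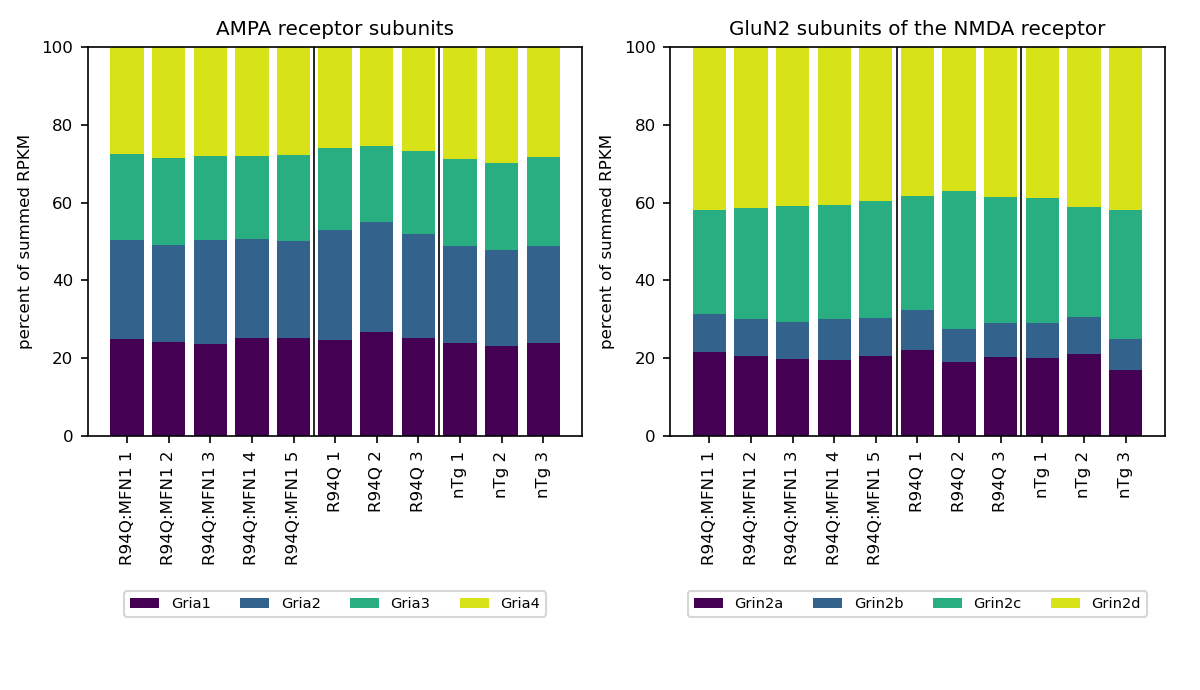
Percent of the summed RPKM taken by each AMPA subunit (left) and each GluN2 subunit (right), as stacked bars that add up to the whole, 1 bar per library. Gria4 is the top AMPA subunit in MFN2-R94Q:MFN1 and nTg libraries and Gria2 in MFN2-R94Q libraries, at 26.9 to 28.3%. The order of subunits depends on the gene lengths used for RPKM.

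Among NMDA receptor subunits 1 of 7, Grin3b, was lower in MFN2-R94Q than in nTg, and none was higher. Grin3b (chromosome 10, 79970715 to 79977190, GRCm38) encodes GluN3B, a subunit found mainly in motor neurons that lowers the calcium permeability of NMDA channels. It was at 2.27, 2.03 and 2.32 RPKM in MFN2-R94Q, against 2.84, 2.88 and 3.14 RPKM in nTg, with a clear gap between the groups. The difference was 0.784-fold (log2 -0.35, SE 0.075, adjusted p = 0.0093), the furthest from 0 among members in that comparison, and it held without MFN2-R94Q replicate 2 (log2 -0.30, adjusted p = 0.029) and without every other library in turn. In MFN2-R94Q:MFN1 Grin3b was at 2.49, 2.80, 2.44, 2.19 and 2.47 RPKM, below every nTg value, but its difference from nTg did not pass (log2 -0.22, SE 0.067, adjusted p = 0.14) and neither did its difference from MFN2-R94Q (log2 0.14, SE 0.067, adjusted p = 0.20). Grin3b made up 1.85 ± 0.198% of summed NMDA subunit RPKM in MFN2-R94Q, against 2.57 ± 0.128% in nTg.

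The motor neuron list moved in the same comparison. Of its 7 genes, 5 were lower in MFN2-R94Q than in nTg (Chat, Slc18a3, Mnx1, Prph and Chodl), none was higher, and the median log2 fold change was -0.21. Without MFN2-R94Q replicate 2, 4 of the 7 were lower. The summed RPKM of the 7 genes was 85.1 to 96.8 in MFN2-R94Q, against 106 to 109 in nTg, and 97.4 to 105 in MFN2-R94Q:MFN1. Over all tested genes 10.4% were called lower and 7.5% higher in this comparison. Other lists were lower in part as well. Of 5 endothelial genes 3 were lower and 1 higher (median log2 fold change -0.30), with sums of 42.3 to 50.2 RPKM in MFN2-R94Q, against 46.2 to 57.1 RPKM in nTg. Of 7 oligodendrocyte genes 3 were lower and 1 higher (median -0.20), with sums of 3334 to 3621 RPKM in MFN2-R94Q, against 3729 to 4042 RPKM in nTg. Of 10 pan-neuronal genes 2 were lower and 1 higher (median -0.05), with sums of 1962 to 2063 RPKM in MFN2-R94Q, against 2084 to 2132 RPKM in nTg. The sums of the motor neuron, oligodendrocyte and pan-neuronal lists did not overlap between these groups, and the endothelial sums did. Schwann cell sums were lower too, at 24.5 to 33.3 RPKM in MFN2-R94Q, against 35.0 to 39.35 RPKM in nTg. Only 1 of the 3 Schwann cell genes passed the filter on low values. It was called lower (log2 -0.34), but not without MFN2-R94Q replicate 2 (log2 -0.21). Ependymal sums were 12.9 to 13.6 RPKM, against 14.4 to 16.7 RPKM in nTg. Astrocyte sums were higher, at 1143 to 1271 RPKM in MFN2-R94Q, against 1111 to 1114 RPKM in nTg. Of the 7 astrocyte genes 2 were higher and 1 lower (median 0.07, and -0.002 without MFN2-R94Q replicate 2). Of 5 oligodendrocyte precursor genes 2 were higher and 1 lower (median 0.03). Of 7 microglia genes 1 was higher and 1 lower (median -0.0003), and of 5 inhibitory neuron genes 1 was lower and none higher (median 0.03). The sums of the precursor, microglia and inhibitory neuron lists overlapped between these groups. The part of motor neuron RNA in the Grin3b result, and of these other cell types in the members called, was not tested. Grin3b also shares 1059 exonic bases, 32.1% of its exons, with Tmem259 on the opposite strand, and whether the authors' counting used strand is not given in the sources used here. Tmem259 was at 37.4 to 42.7 RPKM in all libraries and was not called in any comparison (adjusted p = 0.41, 0.82 and 0.69 in MFN2-R94Q against nTg, MFN2-R94Q:MFN1 against MFN2-R94Q and MFN2-R94Q:MFN1 against nTg).

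Grm4 was the other member called lower in MFN2-R94Q. It encodes mGluR4, a group III metabotropic receptor that sits mostly on presynaptic terminals and lowers transmitter release (chromosome 17, 27422387 to 27521403, GRCm38). It was at 9.04, 8.11 and 9.88 RPKM in MFN2-R94Q, against 10.8, 12.1 and 10.6 RPKM in nTg. The groups did not overlap, with replicate 2 of each group at the far end. The difference was 0.815-fold (log2 -0.30, SE 0.069, adjusted p = 0.013) and held without MFN2-R94Q replicate 2 (log2 -0.23, adjusted p = 0.037), but not without nTg replicate 2 (log2 -0.24, adjusted p = 0.058). MFN2-R94Q:MFN1 libraries were at 10.0, 10.4, 9.27, 10.0 and 9.88 RPKM, all below nTg, and the difference from nTg did not pass (log2 -0.16, SE 0.062, adjusted p = 0.23).

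Of the other metabotropic receptors none was called in any comparison with all 11 libraries in the fit. Grm3, a group II receptor of astrocytes and neurons, was at 7.90, 6.33 and 7.96 RPKM in MFN2-R94Q, against 8.06, 9.43 and 8.41 RPKM in nTg. All MFN2-R94Q values were lower, though replicates 1 and 3 only slightly so (log2 -0.21, SE 0.077, adjusted p = 0.070). Without replicate 2 the difference was log2 -0.11 (adjusted p = 0.22), and without replicate 1 or 3 it passed (adjusted p = 0.043 and 0.044). Grm5, the more abundant group I receptor, which couples to phospholipase C and binds HOMER proteins, was at 12.6, 9.63 and 12.0 RPKM in MFN2-R94Q, against 11.2, 10.99 and 11.04 RPKM in nTg. Replicate 2 was below and replicates 1 and 3 above all nTg libraries, so the groups overlapped (log2 0.03, adjusted p = 0.80). Without replicate 2 Grm5 was called higher in MFN2-R94Q than in nTg (log2 0.14, adjusted p = 0.048) and lower in MFN2-R94Q:MFN1 than in MFN2-R94Q (log2 -0.16, adjusted p = 0.028), so what is said of this gene rests on 1 library.

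The tested vesicular transporter genes and the kainate and delta families gave no call. RNA in cell bodies outside the cord, such as those of sensory afferents, was not sampled, so the transporter values describe cord RNA only. Slc17a6, the gene of the transporter VGLUT2, took 98.3 to 98.5% of the summed vesicular transporter RPKM in the 3 group means. It was at 50.8, 44.4 and 48.2 RPKM in MFN2-R94Q, against 50.5, 49.4 and 48.4 RPKM in nTg, and the groups overlapped (log2 -0.05, 95% interval -0.15 to 0.05, adjusted p = 0.46). Grik5, a kainate subunit that assembles with Grik1, Grik2 or Grik3 products, was at 20.5, 22.1 and 21.5 RPKM in MFN2-R94Q, against 20.3, 20.8 and 21.1 RPKM in nTg. Those values overlapped too (log2 0.04, 95% interval -0.04 to 0.12, adjusted p = 0.48). Grid1, a delta receptor that links to presynaptic neurexins through cerebellins, was at 11.8, 13.0 and 12.9 RPKM in MFN2-R94Q, against 11.6, 12.2 and 12.1 RPKM in nTg, with overlap (adjusted p = 0.35). Grik1 was the member of these families with the lowest adjusted p (3.80, 3.40 and 3.30 RPKM in MFN2-R94Q, against 3.12, 3.14 and 2.81 RPKM in nTg, adjusted p = 0.099).

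No scaffold or neuroligin was called in MFN2-R94Q against nTg. Dlg4 was at 66.1, 67.4 and 70.6 RPKM in MFN2-R94Q, against 70.7, 70.8 and 70.9 RPKM in nTg (log2 -0.06, 95% interval -0.13 to 0.01, adjusted p = 0.23). The nTg libraries were almost identical, and MFN2-R94Q replicate 3 was just below them. Shank3, a deep scaffold of the density that binds HOMER proteins and the cytoskeleton, was at 8.75, 8.42 and 9.01 RPKM in MFN2-R94Q, against 10.1, 9.52 and 10.0 RPKM in nTg (log2 -0.17, SE 0.061, adjusted p = 0.072, and 0.028 in the fit without MFN2-R94Q:MFN1 replicate 3). MFN2-R94Q:MFN1 libraries had 9.39, 8.68, 7.75, 9.10 and 9.05 RPKM of Shank3, also all below nTg (log2 -0.16, SE 0.055, adjusted p = 0.18). Nlgn1, a neuroligin of excitatory synapses, was higher in every library of both transgenic groups than in nTg, where it was at 5.66, 5.47 and 5.84 RPKM, but passed in neither comparison (adjusted p = 0.098 in MFN2-R94Q and 0.21 in MFN2-R94Q:MFN1). The lowest MFN2-R94Q:MFN1 value, 5.89 RPKM, lay close to the highest of nTg. Its difference between MFN2-R94Q and nTg ran from log2 0.05 to 0.20 in other settings. Adjusted p ran from 0.0069 with library weights to 0.50 over all fits. Nlgn3, the more abundant neuroligin, was at 10.7, 11.1 and 10.9 RPKM in MFN2-R94Q, against 11.2, 11.1 and 10.6 RPKM in nTg, with overlap (adjusted p = 0.91). Nlgn3 shares 3823 exonic bases, 41.2% of its exons, with the transcript Gm21986 on the same strand, so its level is uncertain.

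By the plainer measure of whether the groups overlapped, 12 of 41 members, 29.3%, were apart in MFN2-R94Q against nTg, beside 35.7% of all tested genes (16.6% higher and 19.1% lower). Camk2a, Camk2b, Gria1, Gria2, Grik1 and Nlgn1 were higher in every MFN2-R94Q library, and Dlg4, Gria4, Grin3b, Grm3, Grm4 and Shank3 were lower. The same measure gave 10 of 41 members, 24.4%, in MFN2-R94Q:MFN1 against MFN2-R94Q, beside 20.1% of all genes. There Grm3 and Homer3 were higher with MFN1, beside 13.1% of all genes, and 8 members were lower (Camk2a, Camk2b, Dlg3, Gria1, Grin1, Grin2a, Grin2c and Grin2d), beside 7.05%. In MFN2-R94Q:MFN1 against nTg it gave 7 of 41, 17.1%, beside 14.1% of all genes.

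With MFN1 on the mutant background, Camk2a, Camk2b, Grin1 and Grin2c were lower and Homer3 was higher than with MFN2-R94Q alone. The 4 lower members were 9.76% of those tested, beside 3.33% of all genes called lower, and the 1 higher member was 2.44%, beside 9.55% called higher. Without MFN2-R94Q replicate 2, 2 members were called lower, Camk2a and Grm5 (0.893-fold, adjusted p = 0.028), and Homer3 was the 1 called higher. The shares of all genes called in that fit are not given here, and the 9.76% beside 3.33% is from all libraries. Grm5 was not called with all libraries. The median log2 fold change of the members was -0.05, beside 0.01 over all genes. Of 41 members 26 were below 0 and 15 above, and 54.4% of all genes were above 0. Of all genes called in this comparison 74.1% were higher, a share that was 54.7% after quantile normalization, 61.1% after median centring and 54.6% once the trend with transcript length and GC content was removed. Of the 36 members not called, 34 had a 95% interval within ±0.5, and the exceptions were again Grin1os (down to -0.52) and Slc17a7 (up to 0.54).

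Of the 5 genes called with all libraries, Camk2a has no promoter entry in the source used. Among the other 4, Camk2b, Grin1 and Grin2c were called lower and Homer3 higher. Without MFN2-R94Q replicate 2 the 3 lower calls were lost (adjusted p = 0.11, 0.16 and 0.082), and that of Homer3 held. Promoter sequences are shown for these 4 genes. They are from RefSeq on GRCm38.p6 and run 5′ to 3′ on the gene's strand, from 250 bases before the annotated start to 50 bases after it. Capitals mark the GC box, GGGCGG or its reverse complement CCGCCC, a common element of promoters without a TATA box, and adjacent matches may overlap.
Camk2b, chr11:6065699-6065998, minus strand: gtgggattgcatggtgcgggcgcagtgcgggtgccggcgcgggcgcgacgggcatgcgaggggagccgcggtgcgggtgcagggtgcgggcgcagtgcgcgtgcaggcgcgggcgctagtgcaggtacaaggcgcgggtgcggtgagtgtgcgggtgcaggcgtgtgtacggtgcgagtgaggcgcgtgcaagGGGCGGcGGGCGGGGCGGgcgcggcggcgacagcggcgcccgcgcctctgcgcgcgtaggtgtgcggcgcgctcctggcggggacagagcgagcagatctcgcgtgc
Grin1, chr2:25319138-25319437, minus strand: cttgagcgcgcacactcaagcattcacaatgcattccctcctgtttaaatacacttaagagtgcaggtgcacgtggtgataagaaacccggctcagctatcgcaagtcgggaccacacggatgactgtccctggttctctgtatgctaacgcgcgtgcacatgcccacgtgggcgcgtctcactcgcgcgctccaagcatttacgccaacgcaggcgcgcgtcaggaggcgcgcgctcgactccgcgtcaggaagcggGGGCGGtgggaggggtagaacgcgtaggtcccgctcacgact
Grin2c, chr11:115267194-115267493, minus strand: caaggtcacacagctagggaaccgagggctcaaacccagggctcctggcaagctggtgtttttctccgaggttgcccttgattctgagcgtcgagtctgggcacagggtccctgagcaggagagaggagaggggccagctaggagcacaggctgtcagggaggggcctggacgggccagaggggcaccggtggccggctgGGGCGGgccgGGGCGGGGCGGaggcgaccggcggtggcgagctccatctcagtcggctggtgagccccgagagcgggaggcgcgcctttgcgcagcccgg
Homer3, chr8:70282749-70283048, plus strand: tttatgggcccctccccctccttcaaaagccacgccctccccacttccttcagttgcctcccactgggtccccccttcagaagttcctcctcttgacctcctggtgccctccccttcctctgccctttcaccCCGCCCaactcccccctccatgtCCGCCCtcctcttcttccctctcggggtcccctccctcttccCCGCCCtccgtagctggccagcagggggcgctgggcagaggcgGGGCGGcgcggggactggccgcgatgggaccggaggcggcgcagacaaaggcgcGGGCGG
The GC box occurred 3 times in the Camk2b window, 1 time in Grin1, 3 times in Grin2c and 5 times in Homer3, searched on both strands. It occurred at least once in 18 of the 41 promoter windows found for 28 members, and in 35.7% of all 32851 windows. The GC content of the windows was 77.3% for Camk2b, 60.7% for Grin1, 70.0% for Grin2c and 69.7% for Homer3, against a median of 60.0% over member windows and 52.7% over all windows. The cAMP response element TGACGTCA was in none of the 41 member windows and in 1.79% of all. TATAAA or its reverse complement TTTATA was in 3 member windows, 1 of them that of Grin3b, and in 13.6% of all, and the palindrome CAGCTG, an E-box, was in 4 member windows and in 16.3% of all. These matches describe the letters only.

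Grin1 (chromosome 2, 25291181 to 25319187, GRCm38) encodes GluN1, the subunit every NMDA receptor needs. It was at 84.9, 86.4, 80.9, 83.8 and 84.8 RPKM in MFN2-R94Q:MFN1, against 87.3, 98.8 and 90.9 RPKM in MFN2-R94Q. All 5 values were lower, but the gap to MFN2-R94Q replicate 1 was under 1 RPKM, and the nTg libraries, at 85.3, 88.3 and 88.3 RPKM, overlapped with both groups. The difference was 0.913-fold (log2 -0.13, SE 0.038, adjusted p = 0.041). It was lost without MFN2-R94Q replicate 2 (log2 -0.08, adjusted p = 0.16) and in 10 of the 11 fits that left out 1 library. Grin1 shares 1307 exonic bases with the antisense Grin1os, which are 13.5% of the exons of Grin1 and 45.2% of those of Grin1os. The value of Grin1os was also highest in MFN2-R94Q replicate 2, at 3.71 RPKM (adjusted p = 0.12 in MFN2-R94Q:MFN1 against MFN2-R94Q). Whether counting used strand is not given, so the values of Grin1 and Grin1os may not be independent.

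Grin2c (chromosome 11, 115249169 to 115267243, GRCm38) encodes GluN2C, a regulatory subunit that gives NMDA channels low conductance and weak magnesium block. It was at 3.83, 4.27, 4.41, 4.24 and 4.57 RPKM in MFN2-R94Q:MFN1, against 4.77, 6.00 and 5.68 RPKM in MFN2-R94Q. The groups did not overlap, and MFN2-R94Q replicate 1 lay closest to the MFN2-R94Q:MFN1 libraries. The difference was 0.798-fold (log2 -0.33, SE 0.079, adjusted p = 0.020), and it was lost without MFN2-R94Q replicate 2 (log2 -0.26, adjusted p = 0.082) and without replicate 3 (adjusted p = 0.053). nTg libraries had 5.44, 4.49 and 5.36 RPKM, and MFN2-R94Q:MFN1 did not pass against nTg (log2 -0.23, SE 0.079, adjusted p = 0.18).

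Among the GluN2 subunits, which set the gating of NMDA receptors, Grin2d had the highest RPKM in every group. This order, too, depends on the gene lengths used for RPKM. The longest annotated transcripts were 24060 bases for Grin2b, 14634 for Grin2a and 5431 for Grin2d. The share of Grin2d in summed GluN2 RPKM was 40.9 ± 0.862% in MFN2-R94Q:MFN1, against 37.9 ± 0.806% in MFN2-R94Q, and 40.5 ± 1.59% in nTg. Grin2c held 28.8 ± 1.32% in MFN2-R94Q:MFN1, against 32.5 ± 3.14% in MFN2-R94Q, and 31.2 ± 2.62% in nTg. Grin2a and Grin2b, the subunits that prevail in forebrain, held 20.4 ± 0.765% and 9.83 ± 0.378% in MFN2-R94Q:MFN1, and their shares overlapped between all groups. The level of Grin2d itself was 5.89 to 6.18 RPKM in MFN2-R94Q:MFN1, below the 6.21 to 6.71 RPKM of MFN2-R94Q and the 6.52 to 6.75 RPKM of nTg, and passed in neither comparison (adjusted p = 0.26 against MFN2-R94Q and 0.18 against nTg).

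Camk2b (chromosome 11, 5969644 to 6066362, GRCm38) was at 87.5, 88.3, 85.8, 83.5 and 85.4 RPKM in MFN2-R94Q:MFN1, against 89.5, 98.6 and 93.7 RPKM in MFN2-R94Q. The MFN2-R94Q:MFN1 values were all lower, and the spread of MFN2-R94Q was the wider. The difference was 0.918-fold (log2 -0.12, SE 0.033, adjusted p = 0.030). It was lost without MFN2-R94Q replicate 2 (log2 -0.09, adjusted p = 0.11), without MFN2-R94Q replicate 3 (adjusted p = 0.058) and without MFN2-R94Q:MFN1 replicate 3, 4 or 5 (adjusted p = 0.052, 0.057 and 0.063).

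Homer3 (chromosome 8, 70282827 to 70294361, GRCm38), a scaffold that joins group I metabotropic receptors to intracellular calcium stores and SHANK proteins, was the 1 member higher with MFN1. It was at 6.95, 6.74, 6.19, 6.91 and 7.13 RPKM in MFN2-R94Q:MFN1, against 5.14, 5.80 and 5.72 RPKM in MFN2-R94Q. The groups did not overlap. The difference was 1.20-fold (log2 0.27, SE 0.056, adjusted p = 0.011) and held whichever library was left out (log2 0.30, adjusted p = 0.014 without MFN2-R94Q replicate 2). nTg libraries had 6.13, 5.50 and 5.78 RPKM, all below the MFN2-R94Q:MFN1 libraries, and that difference did not pass (log2 0.21, SE 0.056, adjusted p = 0.080). It did pass without MFN2-R94Q replicate 2 (adjusted p = 0.047), without MFN2-R94Q:MFN1 replicate 3 (adjusted p = 0.047), in a fit of these 2 groups alone (adjusted p = 0.045) and with the length and GC trend removed (adjusted p = 0.028). Homer1 and Homer2 overlapped between the groups in all comparisons.

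Homer3 shares 874 exonic bases, 25.4% of its exons, with Ddx49 on the opposite strand. Ddx49 was at 10.3 to 11.6 RPKM in MFN2-R94Q:MFN1, against 11.1 to 12.5 RPKM in MFN2-R94Q, and was not called (log2 -0.07, adjusted p = 0.38). Among cell type lists with at least 3 tested genes, the microglia list had the median furthest from 0 with MFN1: all 7 of its genes were higher in MFN2-R94Q:MFN1 than in MFN2-R94Q, with a median log2 fold change of 0.51, and 6 of 7 were higher than in nTg. Their summed RPKM was 159 to 180 in MFN2-R94Q:MFN1, against 107 to 120 in MFN2-R94Q, and 108 to 114 in nTg. Of the 7 oligodendrocyte genes 4 were higher, with sums of 3882 to 4192 RPKM in MFN2-R94Q:MFN1, against 3334 to 3621 RPKM in MFN2-R94Q. Of the 7 astrocyte genes 3 were higher and 1 lower, with sums of 1282 to 1355 RPKM in MFN2-R94Q:MFN1, against 1143 to 1271 RPKM in MFN2-R94Q. The part of these cell types in the Homer3 result was not tested. The 10 pan-neuronal genes summed to 2022 to 2074 RPKM in MFN2-R94Q:MFN1, against 1962 to 2063 RPKM in MFN2-R94Q, with 1 higher and 1 lower.

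**Figure D5:**
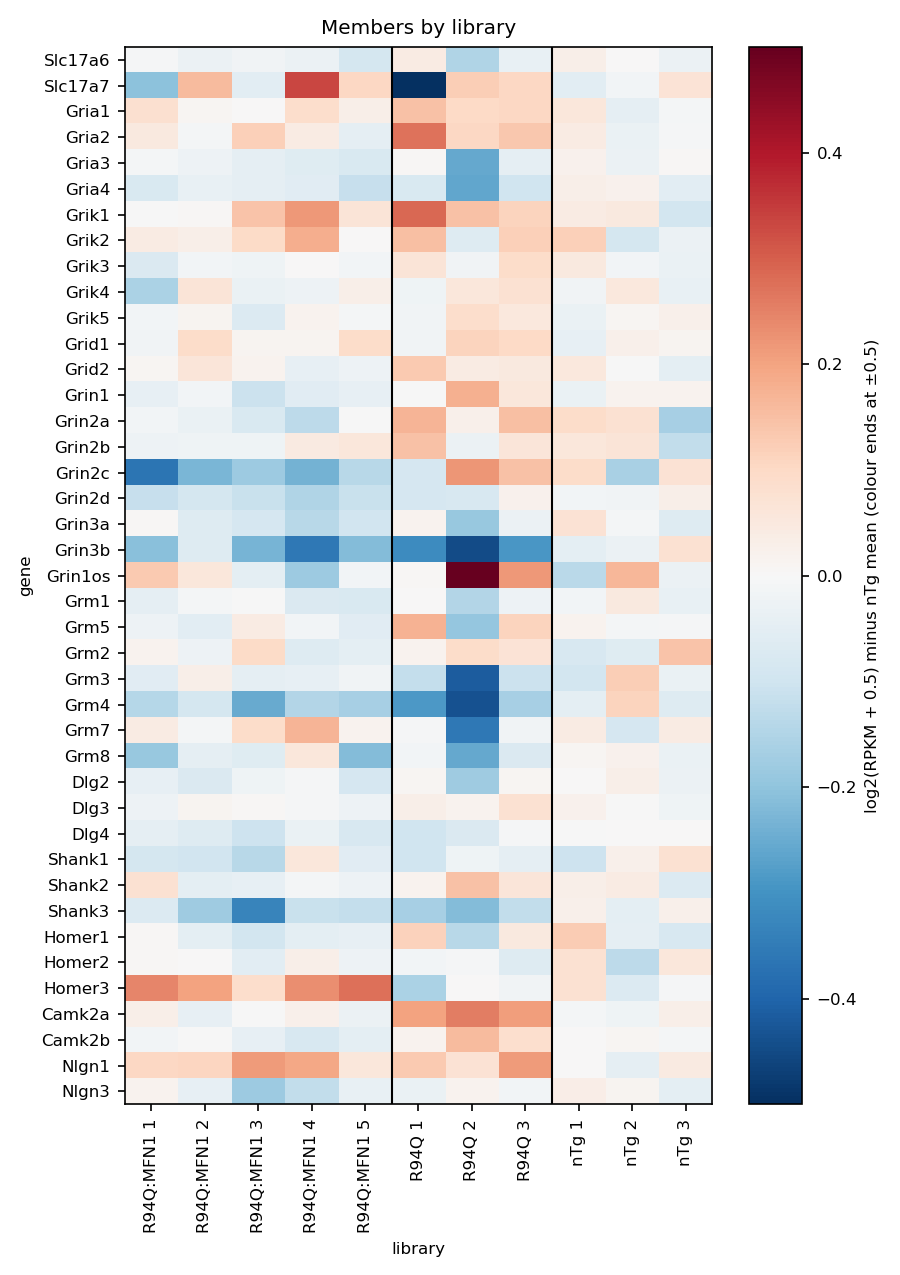
Difference of each library from the nTg mean on the log2(RPKM + 0.5) scale, with members as rows and libraries as columns, and colours that end at ±0.5. MFN2-R94Q replicate 2 shows the lowest values of several metabotropic and AMPA genes and the highest of Grin1 and Camk2b, and Camk2a is higher in all 3 MFN2-R94Q libraries.

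MFN2-R94Q:MFN1 against nTg gave the fewest calls of the 3 comparisons. No member was called in either direction, beside 2.09% of all genes called higher and 0.223% called lower. Of all calls 90.4% were higher, and 77.0% with the length and GC trend removed. The median log2 fold change of the members was -0.02, beside 0.01 over all genes. Of 41 members 30 were below 0 and 11 above, and 54.15% of all genes were above 0. None of the 10 pan-neuronal genes was called, their median was -0.06, and their sums were 2022 to 2074 RPKM in MFN2-R94Q:MFN1, against 2084 to 2132 RPKM in nTg, without overlap. None of the 7 motor neuron genes was called (median -0.15), with sums of 97.4 to 105 RPKM, against 106 to 109 RPKM in nTg. Microglia sums were higher, at 159 to 180 RPKM, against 108 to 114 RPKM in nTg, with 6 of 7 genes called higher. Astrocyte sums were 1282 to 1355 RPKM, against 1111 to 1114 RPKM in nTg, with 1 of 7 called higher. The part of these cell types in the members' values was not tested. Every one of the 41 members had a 95% interval within ±0.5, with bounds from -0.40 (Grin2c) to 0.41 (Slc17a7). Among the 7 members without overlap, Homer3 and Nlgn1 were higher in every MFN2-R94Q:MFN1 library, beside 9.03% of all genes, and Dlg4, Grin2d, Grin3b, Grm4 and Shank3 were lower, beside 5.05%. Dlg4 was at 68.5, 67.6, 65.9, 69.2 and 67.0 RPKM in MFN2-R94Q:MFN1, against 70.7, 70.8 and 70.9 RPKM in nTg (log2 -0.07, SE 0.029, adjusted p = 0.31).

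For the most abundant member of each remaining family the MFN2-R94Q:MFN1 libraries overlapped with nTg. Slc17a6 was at 49.2, 48.4, 48.8, 48.5 and 46.4 RPKM, Grik5 at 20.5, 20.9, 19.8, 21.0 and 20.6 RPKM, and Grid1 at 11.8, 12.8, 12.1, 12.1 and 12.8 RPKM. Gria4 was at 28.6, 29.3, 29.2, 29.0 and 27.8 RPKM and Grm5 at 10.9, 10.7, 11.4, 10.98 and 10.6 RPKM. Grm3 was at 8.27, 8.80, 8.33, 8.35 and 8.51 RPKM and Nlgn3 at 11.1, 10.6, 9.60, 10.0 and 10.7 RPKM. Adjusted p values against nTg were 0.50 or more for these 7 genes. Against MFN2-R94Q, Grm3 lay above all 3 libraries without passing (log2 0.19, SE 0.069, adjusted p = 0.089, and log2 0.09, adjusted p = 0.37 without MFN2-R94Q replicate 2).

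Genes that work beside the members were read from 3 lists of 18, 12 and 39 tested genes. In MFN2-R94Q against nTg 16.7%, 16.7% and 12.8% of them were called, beside 17.9% of all genes. Of 18 auxiliary subunits of ionotropic receptors, which steer AMPA and kainate receptors to the synapse and shape their gating, 3 were lower in MFN2-R94Q than in nTg and none was higher (median log2 fold change -0.02). These were Cacng8, a transmembrane AMPA receptor regulator (0.799-fold, adjusted p = 0.0039), Abhd6, an endocannabinoid hydrolase that also binds AMPA receptors (0.813-fold, adjusted p = 0.0064), and Shisa9 (0.839-fold, adjusted p = 0.026). Cacng8 and Abhd6 were higher in MFN2-R94Q:MFN1 than in MFN2-R94Q (1.14-fold and 1.15-fold, adjusted p = 0.034 and 0.028), and neither was without MFN2-R94Q replicate 2 (adjusted p = 0.071 and 0.10). Shisa9 was lost in MFN2-R94Q against nTg without that library (adjusted p = 0.082). None of the 18 was called in MFN2-R94Q:MFN1 against nTg.

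Of 12 genes of glutamate uptake and recycling, 1 was higher and 1 lower in MFN2-R94Q than in nTg (median log2 fold change 0.06). Glul, the glutamine synthetase of astrocytes, averaged 666 RPKM in MFN2-R94Q, against 567 RPKM in nTg (1.17-fold, adjusted p = 0.016). Slc38a3, a glutamine transporter of astrocytes, averaged 23.8 RPKM in MFN2-R94Q, against 30.0 RPKM in nTg (0.796-fold, adjusted p = 0.0046). Slc38a3 was higher in MFN2-R94Q:MFN1, at 29.4 RPKM, than in MFN2-R94Q (1.23-fold, adjusted p = 0.0054). Both genes held their calls without MFN2-R94Q replicate 2, and none of the 12 was called in MFN2-R94Q:MFN1 against nTg.

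Of 39 other genes of the postsynaptic density and excitatory adhesion, 1 was higher and 4 were lower in MFN2-R94Q than in nTg (median log2 fold change 0.01), beside 7.5% of all genes called higher and 10.4% called lower. With MFN1 on the mutant background 2 were higher and 3 lower than with MFN2-R94Q alone (median -0.03), beside 9.55% and 3.33% of all genes. Arc, an activity-induced gene whose product promotes the removal of AMPA receptors from the synapse, averaged 6.15 RPKM in MFN2-R94Q, against 11.2 RPKM in nTg (0.553-fold, adjusted p = 0.0033). It averaged 9.41 RPKM in MFN2-R94Q:MFN1, higher than in MFN2-R94Q (1.52-fold, adjusted p = 0.010). Lin7b, which joins MAGUK scaffolds to cell adhesion proteins, was 0.765-fold in MFN2-R94Q relative to nTg (adjusted p = 0.0037). Cbln4 was the 1 gene called higher in MFN2-R94Q (1.17-fold, adjusted p = 0.028). The call of Arc held in both comparisons without MFN2-R94Q replicate 2, that of Lin7b held against nTg, and that of Cbln4 was lost (adjusted p = 0.087). In MFN2-R94Q:MFN1 against nTg the 1 call of the 39 was Cbln2, a cerebellin that bridges neurexins and delta receptors (0.882-fold, adjusted p = 0.022). Cbln2 was also called lower in MFN2-R94Q than in nTg (0.907-fold, adjusted p = 0.034), though not without MFN2-R94Q replicate 2 (adjusted p = 0.099). The transgenic groups did not differ in it past the threshold (0.972-fold, adjusted p = 0.49).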

How the data were processed

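RNA sequencing libraries of mouse lumbar spinal cord were made with a stranded mRNA kit, per the labels' protocols. The deposited values are RPKM in 1 column per library. The submitters' processing notes name TopHat without a version, Partek 7.17.0918 and the mouse build mm10. The sources used here do not give the annotation, how reads with several matches were counted or whether strand was used, so values of the 23 members that share exons with another annotated gene are uncertain. RPKM keeps no raw count, but low values of short RNA genes were whole multiples of 1 read, with 94.2% to 96.7% per library within 0.02 of a whole number, which gave the depths.

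Differences were tested with limma 3.58.1 in R 4.3.3 on log2(RPKM + 0.5). A single model with 1 term, genotype, took all 11 libraries, and eBayes allowed for a trend of the variance with level. The filter asked for 0.5 RPKM or more in 3 libraries or more. Tests were two-sided, with Benjamini-Hochberg adjustment over all tested genes and a threshold of 0.05. The 0.5 added before taking log2 makes fold changes of low genes too small. Errors of RPKM and shares are SDs. Nothing states how tissue was sampled beyond animals counted in the design, so p-values measure the spread between these libraries. No 2 libraries of a group were near-identical (SD of their log2 difference 0.126 to 0.238). The fit was tested on simulated data.

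Members given library by library were those called in a comparison and the most abundant of each family in nTg, with all scaffolds taken as 1 family and metabotropic receptors by group. Gria1, Grik1, Nlgn1 and Shank3 were added after their values were seen, because they came near the threshold. The members and lists were chosen with earlier results of these data known. Coordinates are from GENCODE M21 (GRCm38), which matched 43 of 43 members, and promoters from RefSeq, which matched 28.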

Additional observations from a re-analysis of the deposited data

Results flagged for a closer look

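Of 42 members compared within the MFN2-R94Q:MFN1 group of 5 libraries, 1 had a library far from the others. Slc17a6, the vesicular glutamate transporter gene with the highest RPKM, was at 46.4 RPKM in MFN2-R94Q:MFN1 replicate 5, whereas the other 4 libraries lay between 48.4 and 49.2 RPKM. The gap to the nearest library was 0.733 of the whole range of the group. By chance about 1 in 20 groups would be picked out in this way. The groups of 3 libraries are too small for the same comparison.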

How the results depend on the processing

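RPKM held the differences to a median SE of 0.05 to 0.06 on the log2 scale, and members under 1 RPKM were measured least well. No direction of a called member turned in any setting. Camk2a in both of its comparisons, Grin3b and Homer3 kept their calls in all 11 fits without 1 library and in all 10 other settings. No paired analysis was possible because the labels give no replicate numbers and the numbers used here only follow the order of the records.

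Members called higher in MFN2-R94Q against nTg were 2, and 1 without the filter, 1 in a fit of the 2 groups alone, 5 after quantile normalization and 5 with library weights, whose estimation stopped before it converged. Members called lower there were 2, and 1 in the fit of 2 groups and 4 after the correction for length and GC content, which moved the members' median to -0.019. In MFN2-R94Q:MFN1 against MFN2-R94Q members called lower were 4, and 2 without the filter, 2 in the fit of 2 groups and 11 with weights. In MFN2-R94Q:MFN1 against nTg, 1 member, Homer3 each time, was called higher in the fit of 2 groups (adjusted p = 0.045), with weights (0.036) and after the length and GC correction (0.028), with a median of -0.047 after that correction. Over all genes, 844 were called in MFN2-R94Q against nTg in the fit of 2 groups, 1198 without the filter and 3378 with weights in MFN2-R94Q:MFN1 against MFN2-R94Q, and 565 in the fit of 2 groups and 590 with weights in MFN2-R94Q:MFN1 against nTg. The main fit called 2561, 1848 and 332 genes in these comparisons in the same order. The cause of these shifts was not tested. Shares of all genes called in the same direction and setting are not given here. Member counts by setting, and those with 1 library left out, are therefore not read as a result about the members.

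With 1 library left out, calls over all genes ranged from 1213 to 2857 in MFN2-R94Q against nTg, from 882 to 2217 in MFN2-R94Q:MFN1 against MFN2-R94Q and from 189 to 589 in MFN2-R94Q:MFN1 against nTg. Members called higher ranged from 1 to 3, from 1 to 1 and from 0 to 1 in the same comparisons, and members called lower from 1 to 4, from 1 to 5 and from 0 to 0. Without MFN2-R94Q replicate 2, Homer3 passed against nTg and Grm5 passed in both comparisons with MFN2-R94Q. The log2 fold change of Grm5, not called with all libraries, ranged from -0.042 to 0.14 in MFN2-R94Q against nTg, with -0.028 after the length and GC correction, and from -0.16 to 0.021 in MFN2-R94Q:MFN1 against MFN2-R94Q. The members' median ranged from -0.0087 to 0.030, from -0.049 to -0.011 and from -0.04 to -0.02. Outside those fits Gria2 lost its call without the filter (adjusted p = 0.065), in the fit of 2 groups (0.088) and after the length and GC correction (log2 0.08, adjusted p = 0.067). Grin1 lost its call without the filter (adjusted p = 0.070) and in the fit of 2 groups (0.072), Grm4 in the fit of 2 groups (0.061), Camk2b in the same (0.06) and Grin2c without the filter (0.052).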
